A study of Rattus norvegicus with 12 samples.

Results

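Genes of WNT signalling were followed by poly(A) RNA sequencing in NRK-49F, an established line of rat kidney fibroblasts. The 10 genes were taken by symbol. They were the ligands Wnt5a and Wnt5b, the receptors Fzd1, Fzd2, Fzd7 and Ror2 and the co-receptor Lrp6. The others were Dkk3 and Sfrp1, listed as secreted inhibitors, and the target gene Axin2. Of the 10 genes, 9 were found in the table that pairs symbols with gene identifiers, and all 9 were among the 14601 genes tested. Sfrp1 was not analysed here. The cells carried a plasmid for human HDAC1 with a Flag tag or an empty vector (pcDNA3.1), and were kept for 24 hours in medium with 0.5% serum, with 2 ng/ml TGFB1 or without it (vehicle). This gave 4 groups of 3 libraries, namely HDAC1 with TGFB1, empty vector with TGFB1, HDAC1 with vehicle and empty vector with vehicle. All groups shared the line, the transfection and the low serum, and the labels do not say whether the transfected cells were a pool or clones, or whether replicates were separate cultures, so p-values measure the spread between these libraries.

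WNT proteins are secreted lipid-modified ligands that bind Frizzled receptors on the cell surface. Together with the co-receptors LRP5 and LRP6, Frizzled proteins can stabilise beta-catenin, which enters the nucleus and acts with TCF and LEF factors on target genes such as Axin2. Other ligands, among them WNT5A, act largely without beta-catenin through receptors such as ROR2, and secreted proteins of the SFRP and DKK families modulate the pathway outside the cell. In kidney fibrosis, WNT and TGF-beta signalling are both known to act on fibroblasts.

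The promoters of Axin2, Fzd7, Fzd1 and Wnt5a are shown because among the 9 genes tested Axin2 and Fzd1 rose most and Fzd7 fell most with TGFB1, and Wnt5a is the gene whose HDAC1 effect differed between treatments. RefSeq promoters of the build GRCr8 were at hand for 5 of the 10 genes (these 4 and Ror2). The 250 bases before the annotated start are given 5′ to 3′, all on the plus strand, at chr10:94398535-94398784, chr9:68425288-68425537, chr4:30264824-30265073 and chr16:3703415-3703664. Capitals mark matches on either strand to the TCF and LEF core letters CTTTGA or CTTTGT, to the SMAD letters CAGACA and to the AP-1 letters TGANTCA.
Axin2: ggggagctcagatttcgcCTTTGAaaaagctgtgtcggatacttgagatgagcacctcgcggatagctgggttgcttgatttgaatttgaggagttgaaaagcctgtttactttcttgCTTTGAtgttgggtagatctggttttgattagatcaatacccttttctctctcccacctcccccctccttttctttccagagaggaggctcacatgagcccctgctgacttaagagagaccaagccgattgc
Fzd7: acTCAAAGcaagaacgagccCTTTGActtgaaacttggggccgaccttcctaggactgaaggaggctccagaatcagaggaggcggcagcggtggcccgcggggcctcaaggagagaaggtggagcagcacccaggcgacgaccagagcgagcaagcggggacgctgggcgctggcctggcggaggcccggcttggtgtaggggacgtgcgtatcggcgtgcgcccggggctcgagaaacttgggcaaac
Fzd1: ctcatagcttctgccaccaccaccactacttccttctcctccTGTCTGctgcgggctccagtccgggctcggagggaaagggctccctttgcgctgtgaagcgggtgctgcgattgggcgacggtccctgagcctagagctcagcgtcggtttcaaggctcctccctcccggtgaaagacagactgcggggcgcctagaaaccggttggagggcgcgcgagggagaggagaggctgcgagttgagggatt
Wnt5a: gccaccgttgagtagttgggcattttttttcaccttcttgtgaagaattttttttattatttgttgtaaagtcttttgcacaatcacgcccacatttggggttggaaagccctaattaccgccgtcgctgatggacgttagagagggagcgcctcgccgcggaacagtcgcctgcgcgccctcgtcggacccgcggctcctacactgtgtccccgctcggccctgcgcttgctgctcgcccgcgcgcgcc

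Axin2 and Fzd7 each held 2 matches to CTTTGA, Fzd1 held 1 match to CAGACA on the minus strand, and Wnt5a and Ror2 held no match to any of the 4 sets of letters. Over 33469 rat promoters of the same length, 13.91% held at least 1 match to CTTTGA and 27.54% to CTTTGA or CTTTGT. At least 1 match to CAGACA was held by 17.25% and to TGANTCA by 6.34%. The share of promoters with 2 matches was not counted. No matches overlapped. Such matches are letters in a sequence and not measured binding sites. The guanine and cytosine content of these windows was 47.6% for Axin2, 65.6% for Fzd7, 63.6% for Fzd1 and 57.2% for Wnt5a, against a median of 51.2% over all promoters.

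Library totals ran from 18397093 to 36652084 counts. The lowest count in any library was 59 for Wnt5b (HDAC1 with TGFB1, replicate 1) and 3250 for Fzd1 (HDAC1 with vehicle, replicate 3). As a check of the labels, Hdac1 was higher with the plasmid, at 464 ± 43.5 against 267 ± 21.1 CPM with TGFB1. In vehicle Hdac1 was at 421 ± 43.3 against 210 ± 4.13 CPM (SD, n = 3). Its rat copy Hdac1l was at 1090 ± 251 against 9.30 ± 1.64 CPM with TGFB1. In vehicle Hdac1l was at 1172 ± 279 against 8.29 ± 7.33 CPM (SD, n = 3). The empty vector vehicle libraries ran from 0.530 to 15.1 CPM of Hdac1l. The share of reads from the human plasmid in Hdac1 and in Hdac1l is not known. Ccn2, a TGF-beta target, was higher with TGFB1, at 707 ± 30.7 against 189 ± 11.3 CPM in vehicle with HDAC1 and at 1150 ± 147 against 288 ± 47.8 CPM in vehicle with the empty vector (SD, n = 3). Of 10 fibroblast markers, 9 were measured and summed to 18616 to 21852 CPM with HDAC1 and TGFB1, 21215 to 25757 with the empty vector and TGFB1, 12476 to 14592 with HDAC1 and vehicle and 15536 to 17667 with the empty vector and vehicle. The sum was thus higher with TGFB1 in both backgrounds and lower with HDAC1 in vehicle, without overlap. A few genes weighed most in it. Over the 12 libraries Fn1 averaged 5779 CPM, Col1a1 4612, Vim 3674 and Col1a2 2869. Dcn averaged 0.571 CPM, and Thy1 was not among the genes tested. The kidney tubule markers left 1 of 9 measured, at no more than 1.21 CPM. Transcripts of heart and brain were present and uneven: the 21 heart markers summed to 152.2 to 168.7 CPM with HDAC1 and TGFB1, 433.6 to 542.1 CPM with the empty vector and TGFB1, 237.1 to 444.5 CPM with HDAC1 and vehicle and 69.3 to 404.5 CPM with the empty vector and vehicle. For 17 brain markers the sums were 49.9 to 53.0, 143.1 to 148.0, 85.3 to 133.6 and 19.7 to 120.2 CPM in the same order of groups. They moved with TGFB1 too, lower with HDAC1 and higher with the empty vector, and the lowest library in both lists was empty vector vehicle replicate 1. Of the remaining lists, 6 of 8 endothelial markers summed to 16.2 to 17.8 CPM with HDAC1 and TGFB1 and to 19.9 to 23.9 CPM in the other groups. Egfl7 was the largest of these 6, at a mean of 16.2 CPM over the 12 libraries. The 4 of 7 smooth muscle and pericyte markers measured summed to 78.2 to 87.9, 99.5 to 105, 64.3 to 71.9 and 66.3 to 78.3 CPM in the same order of groups, higher with TGFB1 in both backgrounds. The 2 of 8 immune markers measured summed to 2.43 to 3.53, 3.57 to 5.01, 5.42 to 8.29 and 9.28 to 10.6 CPM in the same order of groups. The part of these transcripts in the results below was not tested beyond the fits with heart and brain markers as a covariate. A lower level of a transcript in all cells and fewer cells that make it cannot be told apart in these bulk libraries.

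TGFB1 changed most of the WNT genes in both backgrounds. With HDAC1, 3 of the 9 rose (Fzd1, Fzd2 and Axin2), 4 fell (Wnt5a, Fzd7, Ror2 and Dkk3) and 2 were not called, and with the empty vector the same 7 genes were called in the same directions. Levels are CPM, counts scaled to a common library size by TMM, and a gene was called at an adjusted p under 0.05 over all genes tested in edgeR's quasi-likelihood test. The 7 called genes are 77.8% of the 9 in each background, against 49.1% of all genes tested with HDAC1 and 50.9% with the empty vector. The genes were chosen with earlier results of these data known, so this share and those for HDAC1 below are descriptions. The median log2 fold change of the 9 was -0.21 with HDAC1 and -0.14 with the empty vector, against -0.02 and 0.01 over all genes. Both backgrounds have their own vehicle libraries.

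HDAC1 lowered some of the same genes when no cytokine was added. In vehicle, 4 of the 9 fell (Fzd1, Fzd7, Dkk3 and Lrp6) and 0 rose, against 7.32% of all genes called lower and 14.0% called in either direction. With TGFB1 present, HDAC1 lowered Fzd1 and raised Wnt5a, and 7 were not called, against 6.53% of all genes called. In vehicle the summed fibroblast markers, of which Fn1 and Col1a1 were the largest, were lower with HDAC1 as well. The part of these markers in the falls was not tested. The comparisons that share a group of libraries are not independent of each other.

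**Figure D1:**
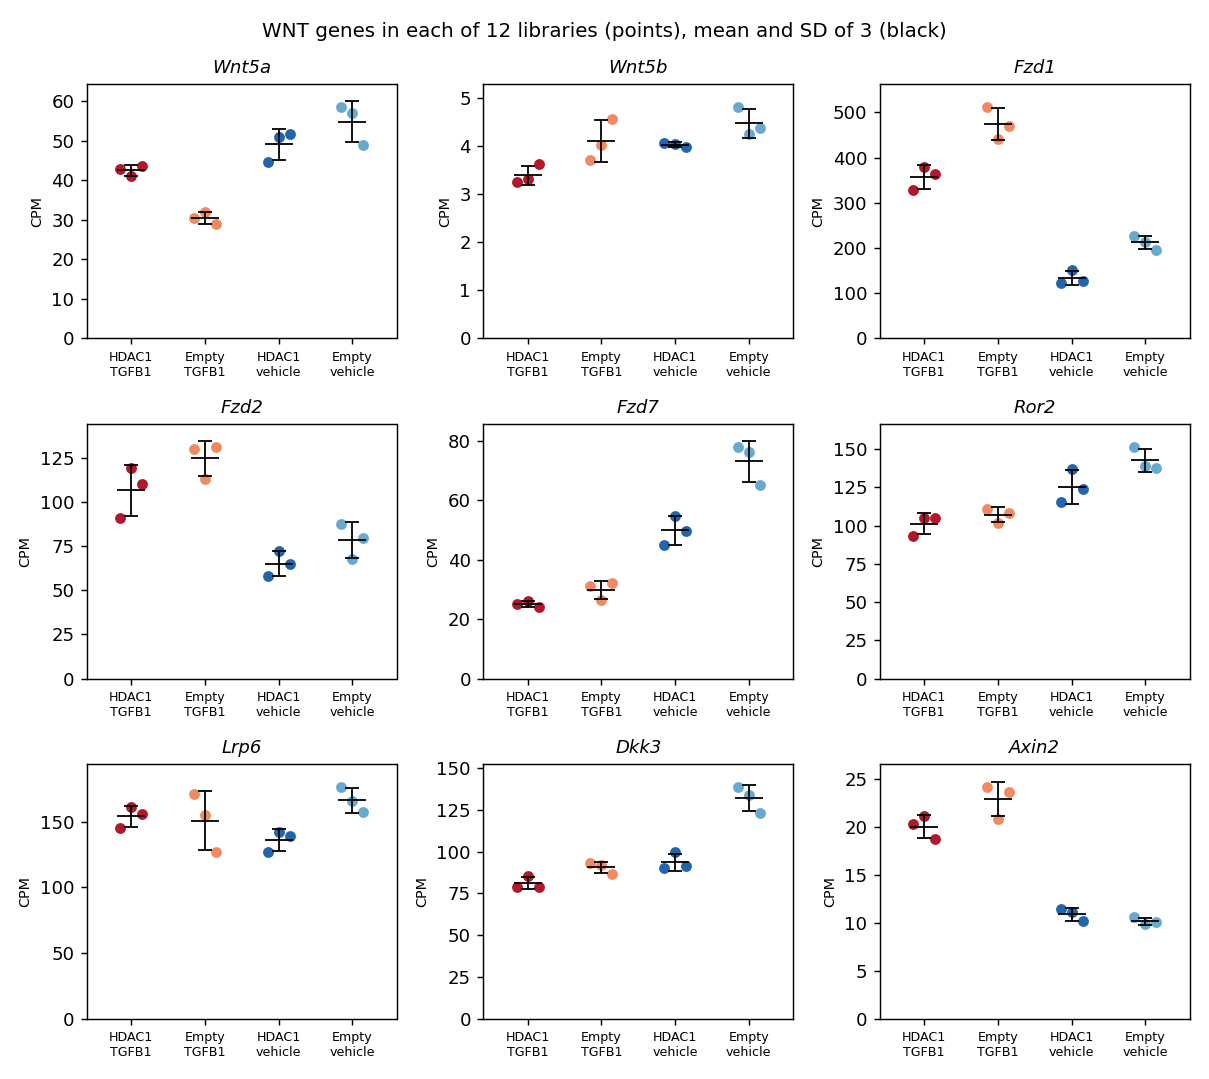
Level of each WNT gene in CPM (vertical axis, from 0) in the 12 libraries, in the 4 groups on the horizontal axis; points are libraries, and black marks give the mean and SD of 3. Wnt5a was lowest with the empty vector and TGFB1 (30.4 CPM), while Fzd1 and Axin2 were highest there (474 and 22.9 CPM).

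Wnt5a (ENSRNOG00000015618), the ligand of ROR2 that acts largely without beta-catenin, had 42.8, 41.0 and 43.6 CPM with HDAC1 and TGFB1, against 30.3, 31.9 and 29.0 CPM with the empty vector and TGFB1. In vehicle it had 44.6, 50.8 and 51.7 CPM with HDAC1, against 58.5, 56.9 and 48.9 CPM with the empty vector. With TGFB1 every HDAC1 library exceeded every empty vector library, and the groups overlapped in vehicle. In order of level, the means were 30.4 ± 1.43 CPM (empty vector, TGFB1), 42.5 ± 1.34 (HDAC1, TGFB1), 49.0 ± 3.89 (HDAC1, vehicle) and 54.8 ± 5.18 (empty vector, vehicle; SD, n = 3), and of the neighbours in this order the vehicle groups overlapped. With TGFB1, Wnt5a was 1.39-fold higher with HDAC1 than with the empty vector (edgeR adjusted p = 0.00169, log2 fold change 0.48 ± 0.08 SE). In vehicle its log2 fold change was -0.16 ± 0.08 SE (95% interval -0.34 to 0.02, edgeR adjusted p = 0.196).

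TGFB1 lowered Wnt5a by 0.85 on the log2 scale in empty vector cells, to 0.556 of the vehicle level (SE 0.08, edgeR adjusted p = 2.41e-08). In HDAC1 cells the log2 fold change was -0.21 ± 0.08 SE, or 0.867 of the vehicle level (edgeR adjusted p = 0.0365). Among the fits that leave out 1 library, this second call ended without HDAC1 vehicle replicate 2 (-0.21, edgeR adjusted p = 0.0611), HDAC1 vehicle replicate 3 (-0.16, 0.145) or HDAC1 TGFB1 replicate 2 (-0.21, 0.0637). The second call also ended with a replicate block (-0.21, edgeR adjusted p = 0.0513).

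The HDAC1 effect on Wnt5a differed between the treatments by 0.64 ± 0.11 SE on the log2 scale (TGFB1 minus vehicle, edgeR adjusted p = 0.0219 over all genes). Of the 9 genes this was the 1 called, against 0.479% of all genes, and Wnt5a was taken into the list with this difference known, so the count is a description. The difference was 0.62 without HDAC1 TGFB1 replicate 1 (edgeR adjusted p = 0.0624) and 0.61 without HDAC1 TGFB1 replicate 3 (0.0957), which ended the call, and it lay between 0.55 and 0.72 in all 18 alternative fits. Heart and brain transcripts were lower with HDAC1 and TGFB1 than with the empty vector and TGFB1 in every library, as given above. With their mean level as a covariate the difference was 0.55 (edgeR adjusted p = 0.593) and the HDAC1 effect with TGFB1 was 0.42 (edgeR adjusted p = 0.0659). Without empty vector vehicle replicate 1, the library lowest in these transcripts, the difference was 0.61 (edgeR adjusted p = 0.0285).

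**Figure D2:**
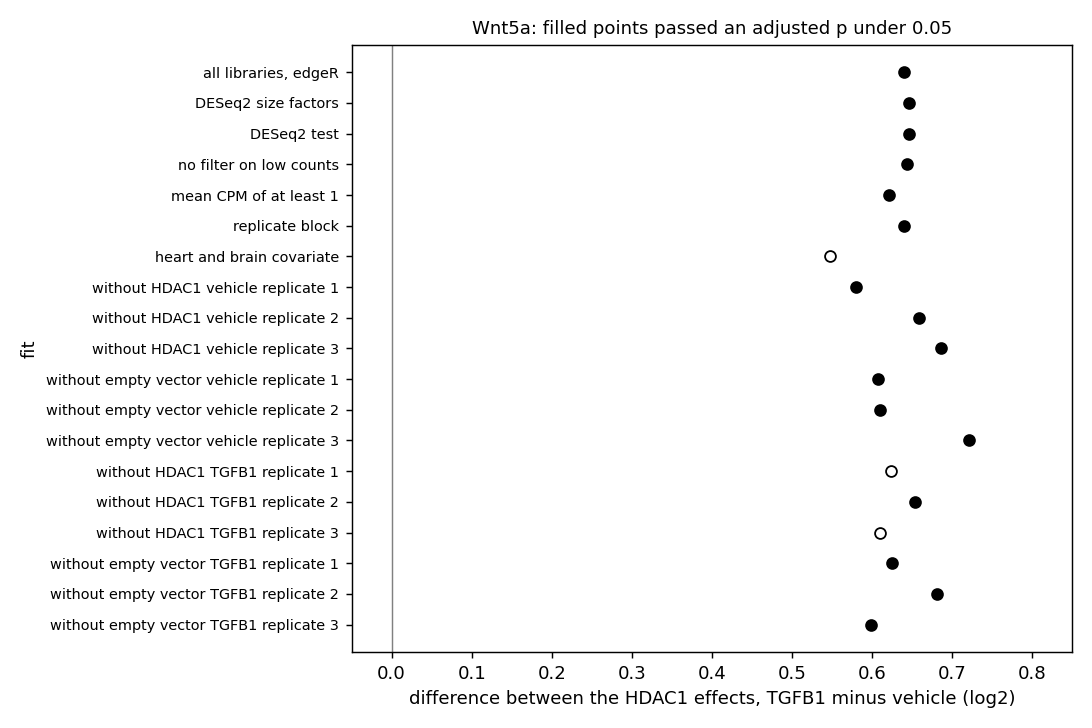
Difference between the HDAC1 effects on Wnt5a, TGFB1 minus vehicle, in log2 units (horizontal axis) in the fit to all libraries and in 18 alternatives (vertical axis); filled points passed an adjusted p under 0.05. The value stayed between 0.55 and 0.72, and 3 alternatives did not pass.

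Wnt5b (ENSRNOG00000008168), a ligand close to Wnt5a in sequence, was a low transcript. It had 3.26, 3.31 and 3.62 CPM with HDAC1 and TGFB1 against 3.71, 4.02 and 4.56 CPM with the empty vector and TGFB1, and 4.07, 4.05 and 3.97 CPM with HDAC1 and vehicle against 4.82, 4.24 and 4.36 CPM with the empty vector and vehicle. HDAC1 libraries lay below empty vector libraries in both treatments, but it was not called in any comparison (edgeR adjusted p from 0.184 to 0.869). The difference of its HDAC1 effects was -0.12 on the log2 scale (95% interval -0.61 to 0.37), an interval that does not reach the 0.64 measured for Wnt5a; whether the genes differ from each other was not tested.

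The genes whose pattern over the 12 libraries lay nearest to that of Wnt5a were Fam120c, Arhgap28, Socs5, Ubxn2b and Rbpj. Nearness was the root mean square difference of log2 CPM, each gene less its own mean, and it was 0.10 to 0.14 for these 5 against a median of 0.37 over 10282 genes. Arhgap28 averaged 12.2 ± 0.458 CPM with HDAC1 and TGFB1, 9.07 ± 0.804 with the empty vector and TGFB1, 16.4 ± 0.610 with HDAC1 and vehicle and 16.7 ± 1.12 with the empty vector and vehicle. Fam120c, the nearest, averaged 6.93 ± 0.321, 5.79 ± 0.0763, 8.18 ± 0.521 and 9.77 ± 1.03 CPM in the same order of groups (SD, n = 3). In vehicle the 5 genes differed in direction. Rbpj was higher with HDAC1 (334 ± 13.8 against 306 ± 12.6 CPM), and the means of the others were lower. None of the 5 passed the test of a difference between HDAC1 effects (edgeR adjusted p from 0.140 to 0.565).

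Among the receptors, Fzd1 and Fzd7, which belong to the same subgroup of Frizzled proteins, moved in opposite directions with TGFB1. Fzd1 (ENSRNOG00000062541) had 328.3, 380.1 and 363.4 CPM with HDAC1 and TGFB1 against 122.5, 151.3 and 126.6 CPM with HDAC1 and vehicle, a 2.68-fold rise (1.42 ± 0.08 SE on the log2 scale, edgeR adjusted p = 1.92e-11). With the empty vector it had 512.2, 441.5 and 468.8 CPM with TGFB1 against 227.1, 213.1 and 196.5 CPM in vehicle, a 2.23-fold rise (1.16 ± 0.08 SE, edgeR adjusted p = 3.91e-10). No library of a TGFB1 group overlapped with vehicle, and none of an HDAC1 group overlapped with the empty vector of the same treatment. HDAC1 lowered Fzd1 to 0.754 of the empty vector level with TGFB1 (edgeR adjusted p = 0.00606, log2 fold change -0.41 ± 0.08 SE) and to 0.629 of it in vehicle (-0.67 ± 0.08 SE, edgeR adjusted p = 2.75e-05). The call with TGFB1 ended without HDAC1 TGFB1 replicate 1 (-0.35, edgeR adjusted p = 0.0547). The difference of these HDAC1 effects was not called (0.26, 95% interval -0.01 to 0.53, edgeR adjusted p = 0.346).

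Fzd7 (ENSRNOG00000016119) had 25.2, 26.1 and 24.2 CPM with HDAC1 and TGFB1 against 44.9, 54.9 and 49.8 CPM with HDAC1 and vehicle. With the empty vector it had 31.1, 26.4 and 32.2 CPM with TGFB1 against 77.9, 76.1 and 65.2 CPM in vehicle. All TGFB1 libraries lay below all vehicle libraries. TGFB1 brought it to 0.507 of the vehicle level with HDAC1 (-0.98 ± 0.09 SE on the log2 scale, edgeR adjusted p = 2.06e-08) and to 0.409 of it with the empty vector (-1.29 ± 0.09 SE, edgeR adjusted p = 2.34e-10), the lowest ratio among the 9 genes. HDAC1 lowered it in vehicle by 0.55 ± 0.09 SE on the log2 scale (edgeR adjusted p = 0.000210), and with TGFB1 its log2 fold change was -0.24 ± 0.10 SE (95% interval -0.46 to -0.02, edgeR adjusted p = 0.128). The difference between the HDAC1 effects was 0.31 (edgeR adjusted p = 0.299).

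Fzd2 (ENSRNOG00000021962), of the same subgroup, followed Fzd1 in its response to TGFB1. It had 90.8, 119.2 and 109.9 CPM with HDAC1 and TGFB1 against 57.9, 72.4 and 64.8 CPM with HDAC1 and vehicle, and 129.7, 113.1 and 131.1 CPM with the empty vector and TGFB1 against 87.6, 67.7 and 79.9 CPM with the empty vector and vehicle. The rise was 1.64-fold with HDAC1 (edgeR adjusted p = 4.20e-05) and 1.59-fold with the empty vector (edgeR adjusted p = 7.29e-05). HDAC1 and empty vector libraries overlapped in both treatments, and the HDAC1 effect was not called with TGFB1 (-0.22, 95% interval -0.47 to 0.03, edgeR adjusted p = 0.229) or in vehicle (-0.27, -0.53 to -0.02, edgeR adjusted p = 0.115). In vehicle it was called without HDAC1 vehicle replicate 2 (-0.35, edgeR adjusted p = 0.0492).

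Ror2 (ENSRNOG00000053232), the receptor tyrosine kinase that binds WNT5A, had 93.5, 105.1 and 105.2 CPM with HDAC1 and TGFB1 against 115.2, 136.9 and 124.0 CPM with HDAC1 and vehicle. With the empty vector it had 111.2, 101.7 and 108.4 CPM with TGFB1 against 151.4, 139.0 and 137.7 CPM in vehicle. TGFB1 libraries lay below vehicle libraries in each background, with log2 fold changes of -0.31 ± 0.07 SE with HDAC1 and -0.41 ± 0.07 SE with the empty vector (edgeR adjusted p = 0.00132 and 5.43e-05). HDAC1 did not give a call with TGFB1 (-0.08, edgeR adjusted p = 0.551) or in vehicle (-0.19, edgeR adjusted p = 0.0839), and in vehicle the call was reached without HDAC1 vehicle replicate 2 (-0.25, edgeR adjusted p = 0.0251).

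Lrp6 (ENSRNOG00000006338), the co-receptor of the beta-catenin branch, was not called for TGFB1 in either background. It had 145.2, 160.8 and 155.5 CPM with HDAC1 and TGFB1 against 170.8, 154.8 and 126.5 CPM with the empty vector and TGFB1, groups that overlapped (log2 fold change 0.03, edgeR adjusted p = 0.877). In vehicle it had 126.8, 141.8 and 139.2 CPM with HDAC1 against 176.1, 165.5 and 156.9 CPM with the empty vector, and all HDAC1 libraries were lower (edgeR adjusted p = 0.0257, log2 fold change -0.29 ± 0.08 SE). The call was lost without HDAC1 vehicle replicate 1 (-0.23) or 3 (-0.29), without empty vector vehicle replicate 1 (-0.24) or 2 (-0.27), and with the heart and brain covariate (-0.26). The TGFB1 effect was 0.18 with HDAC1 (95% interval -0.02 to 0.38) and -0.14 with the empty vector (-0.34 to 0.06). It was called at 0.15 with HDAC1 without empty vector TGFB1 replicate 3 and at -0.26 with the empty vector without empty vector TGFB1 replicate 1 (edgeR adjusted p = 0.0424 and 0.0162).

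Dkk3 (ENSRNOG00000016343), a member of the Dickkopf family of secreted glycoproteins listed with the inhibitors, was highest in empty vector cells in vehicle. Whether it inhibits WNT signalling in these cells was not tested. It had 79.1, 85.4 and 78.8 CPM with HDAC1 and TGFB1, 93.0, 91.8 and 86.8 CPM with the empty vector and TGFB1, 90.4, 99.4 and 91.1 CPM with HDAC1 and vehicle, and 138.5, 133.6 and 123.3 CPM with the empty vector and vehicle. The empty vector vehicle libraries lay above all others, and the 2 middle groups (empty vector with TGFB1 and HDAC1 with vehicle) overlapped. HDAC1 lowered Dkk3 in vehicle by 0.49 ± 0.06 SE on the log2 scale (edgeR adjusted p = 4.10e-05), and with TGFB1 its log2 fold change was -0.16 ± 0.07 SE (edgeR adjusted p = 0.153). TGFB1 lowered it by 0.21 ± 0.07 SE with HDAC1 and by 0.54 ± 0.06 SE with the empty vector (edgeR adjusted p = 0.0123 and 5.41e-07). The difference between the HDAC1 effects was 0.33 ± 0.09 SE and was not called (edgeR adjusted p = 0.0947); it was called without empty vector vehicle replicate 3 (0.38, edgeR adjusted p = 0.0426) and in the DESeq2 test (0.34, DESeq2 adjusted p = 0.0264).

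Axin2 (ENSRNOG00000055010), a scaffold of the beta-catenin destruction complex and itself a target of beta-catenin, rose with TGFB1. It had 20.3, 21.1 and 18.7 CPM with HDAC1 and TGFB1 against 11.4, 11.2 and 10.2 CPM with HDAC1 and vehicle, and 24.2, 20.9 and 23.7 CPM with the empty vector and TGFB1 against 10.6, 9.91 and 10.1 CPM with the empty vector and vehicle. All TGFB1 libraries lay above all vehicle libraries. The rise was 1.83-fold with HDAC1 (0.87 ± 0.09 SE on the log2 scale, edgeR adjusted p = 1.17e-07) and 2.25-fold with the empty vector (1.17 ± 0.09 SE, edgeR adjusted p = 1.80e-09). HDAC1 gave no call with TGFB1 (-0.19, 95% interval -0.40 to 0.01) or in vehicle (0.10, -0.12 to 0.33), where libraries overlapped, and the difference between the HDAC1 effects was -0.29 (edgeR adjusted p = 0.344).

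**Figure D3:**
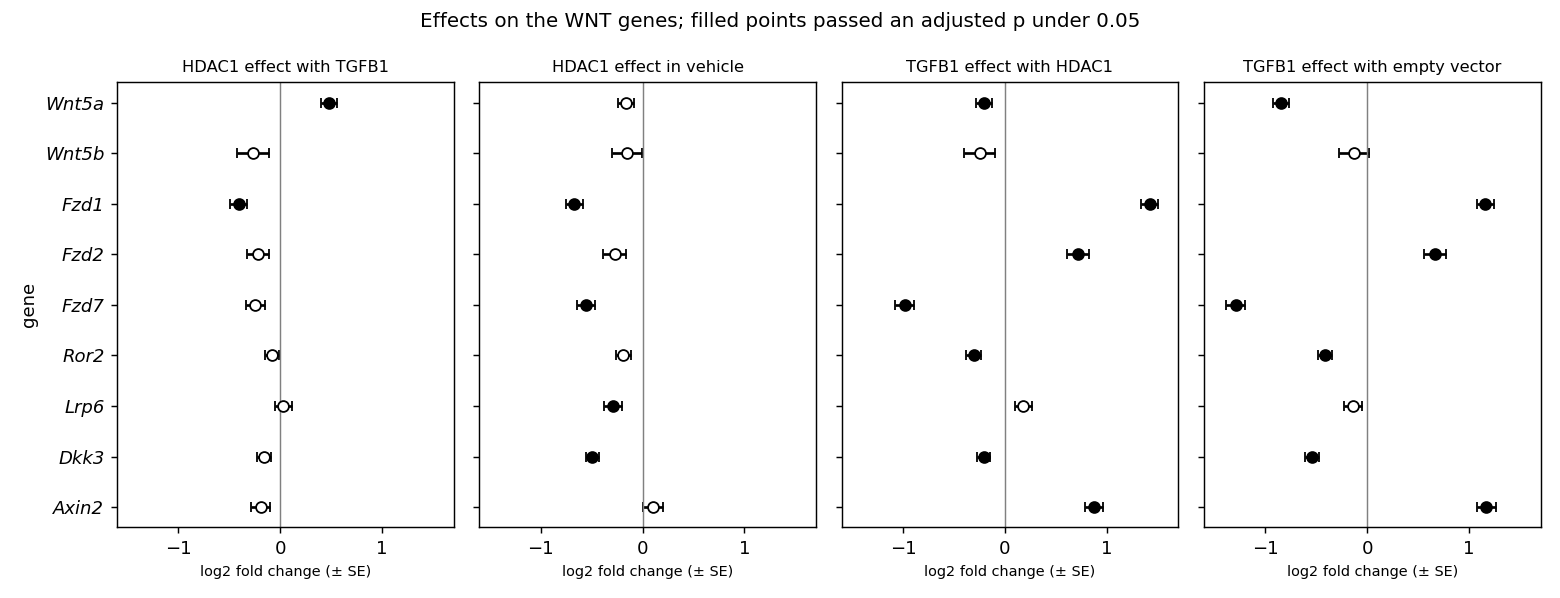
Log2 fold change with its SE (horizontal axes) of each WNT gene (vertical axis) for the HDAC1 effect with TGFB1 and in vehicle and for the TGFB1 effect with HDAC1 and with the empty vector; filled points passed an adjusted p under 0.05. The TGFB1 effects reach 1.42 for Fzd1 and -1.29 for Fzd7, and Wnt5a is the gene called higher with HDAC1 (0.48, with TGFB1).

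The other genes of the pathway were taken from 7 lists by role, with 107 genes besides the 10, of which 68 were tested. With TGFB1, 24 of the 68 rose and 16 fell in HDAC1 cells, and 23 rose and 18 fell in empty vector cells, against 24.9% higher and 24.2% lower of all genes with HDAC1 and 25.9% and 25.0% with the empty vector. The median log2 fold change of the 68 was 0.06 with HDAC1 and 0.05 with the empty vector.

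Of the other ligands, 5 were tested, and 3 rose in HDAC1 cells and 4 rose and 1 fell in empty vector cells with TGFB1. For comparison, 49.1% of all genes were called in either direction with HDAC1 and 50.9% with the empty vector. Wnt2, a ligand of the beta-catenin branch, had 5.35, 5.84 and 6.14 CPM with HDAC1 and TGFB1 and 8.09, 8.43 and 7.94 CPM with the empty vector and TGFB1, against 0.13, 0.12 and 0.16 CPM with HDAC1 and vehicle and 0.13, 0.11 and 0.11 CPM with the empty vector and vehicle. All TGFB1 libraries lay far above all vehicle libraries. The vehicle libraries held 3 to 5 counts with HDAC1 and 2 to 3 with the empty vector, and the ratio of summed counts was 43.0 with HDAC1 (95% interval for counting error only, 24.4 to 84.0) and 70.9 with the empty vector (35.7 to 165). Wnt9a rose by 0.88 and 0.77 on the log2 scale with HDAC1 and with the empty vector, and Wnt4 rose by 0.94 with the empty vector and had 0.06 with HDAC1; the difference for Wnt4 was not called (-0.89, edgeR adjusted p = 0.186).

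Of 7 other feedback targets of beta-catenin tested, 4 rose and 3 fell in HDAC1 cells and 4 rose and 2 fell in empty vector cells with TGFB1, with medians of 0.84 and 0.68. The share of all genes called in either direction was 49.1% with HDAC1 and 50.9% with the empty vector. Lef1, a factor that carries beta-catenin on DNA, had 74.3, 74.9 and 79.5 CPM with HDAC1 and TGFB1 against 20.5, 22.8 and 24.4 CPM with HDAC1 and vehicle, and 64.5, 66.6 and 61.1 CPM with the empty vector and TGFB1 against 24.5, 23.3 and 23.4 CPM in vehicle. Tcf7, a related factor, rose by 2.44 ± 0.10 SE with HDAC1 and 2.13 ± 0.10 SE with the empty vector, and Ccn4 (WISP1), a matricellular protein gene, rose by 1.50 and 1.35. Bambi, a pseudoreceptor of the TGF-beta receptor family, fell by 0.82 and 0.91, and Apcdd1, a membrane inhibitor of WNT signalling, fell by 1.38 and 1.49. The list had no common direction, and all of these named genes had no overlap between TGFB1 and vehicle libraries.

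Receptors and outside regulators also changed both ways with TGFB1. Of 12 other receptors, 3 rose and 4 fell with HDAC1 and 4 rose and 5 fell with the empty vector. All genes tested moved both ways too, with 24.9% higher and 24.2% lower with HDAC1 and 25.9% and 25.0% with the empty vector. The LGR genes moved in opposite directions. Lgr6, a low transcript, rose by 2.29 ± 0.32 SE with HDAC1 and by 3.30 ± 0.39 SE with the empty vector. Its means were 2.10 CPM with TGFB1 and 0.428 CPM in vehicle with HDAC1, and 1.76 and 0.177 CPM with the empty vector. The empty vector vehicle libraries ran from 0.088 to 0.265 CPM of Lgr6, so the rise of 3.30 rests on few counts there. Lrp5, the other co-receptor of the beta-catenin branch, fell by 0.99 with HDAC1 and by 0.95 with the empty vector. Lgr4, a receptor of R-spondins, fell by 0.73 and 0.92. Its ligand gene Rspo3 had 0.66, 0.74 and 0.49 CPM with HDAC1 and TGFB1 against 2.75, 3.54 and 3.16 CPM with HDAC1 and vehicle, and 0.95, 0.43 and 0.94 CPM with the empty vector and TGFB1 against 5.17, 6.68 and 4.36 CPM in vehicle. TGFB1 libraries were below vehicle libraries in both backgrounds (log2 fold changes -2.30 and -2.80, edgeR adjusted p = 8.33e-07 and 2.12e-08). Kremen1, a receptor of Dickkopf proteins, rose by 2.28 and 2.10, and the inhibitor gene Sfrp4 rose by 0.32 and 0.26.

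**Figure D4:**
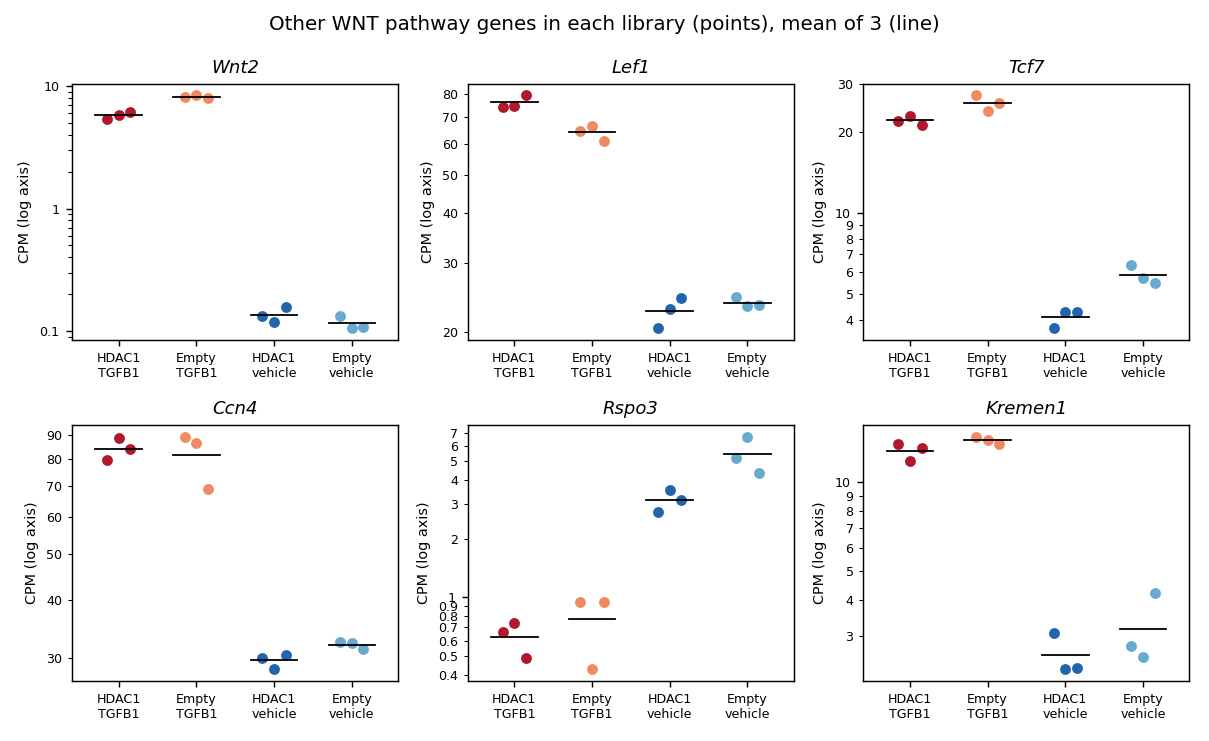
Level of 6 other WNT pathway genes in CPM (vertical log axes) in the 12 libraries, by group on the horizontal axis; points are libraries and lines are means of 3. Wnt2 was at 5.35 CPM or more in every TGFB1 library and at 0.16 CPM or less in every vehicle library, and Rspo3 was lower with TGFB1.

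Among cytoplasmic and nuclear components, 22 were tested, and 14 with HDAC1 and 15 with the empty vector were not called for TGFB1. Beside this list and the planar polarity list below, 49.1% of all genes were called with HDAC1 and 50.9% with the empty vector. Ctnnb1, the gene of beta-catenin, was at 0.20 with HDAC1 (edgeR adjusted p = 0.00519) and at 0.10 with the empty vector (edgeR adjusted p = 0.156) on the log2 scale; it lies outside the rule for named genes and was chosen after its values were seen. Amer1, which brings APC to the membrane, fell by 0.53 and 0.72. Of 13 planar polarity genes, 5 rose and 5 fell with HDAC1 and 6 rose and 4 fell with the empty vector, with Prickle1 at 1.78 and 1.86 and Prickle2 at -1.28 and -1.48.

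For the HDAC1 effect, 5 of the 68 other genes rose and 8 fell with TGFB1, and 1 rose and 11 fell in vehicle, against 2.17% higher and 4.36% lower of all genes with TGFB1 and 6.64% and 7.32% in vehicle. Sfrp4, which codes for a secreted Frizzled-related inhibitor, had 187.6, 199.3 and 190.8 CPM with HDAC1 and TGFB1 against 234.2, 239.8 and 245.9 CPM with the empty vector and TGFB1, and 151.4, 169.2 and 143.0 CPM with HDAC1 and vehicle against 209.1, 198.8 and 193.3 CPM with the empty vector and vehicle. HDAC1 lowered it in both treatments with no overlap (log2 fold changes -0.32 and -0.38, edgeR adjusted p = 0.00627 and 0.000477). Prickle2, a planar polarity gene, also fell in both (-0.75 and -0.95, edgeR adjusted p = 0.00635 and 5.25e-05). Fzd8, a Frizzled receptor gene, was lower with HDAC1 in TGFB1-treated cells (-0.76, edgeR adjusted p = 0.00109) and was at -0.17 in vehicle (edgeR adjusted p = 0.408); the difference was not called with the filter on low counts (-0.59, edgeR adjusted p = 0.110). In vehicle HDAC1 lowered Apcdd1 by 0.57 and Tcf7 by 0.52. These calls, 3 of the 12 named by the rule with TGFB1 and 4 of the 12 in vehicle, held under every alternative, and the remaining 9 and 8 ended under at least 1. For a difference between the HDAC1 effects, 0 of the 68 were called in edgeR and 0 in the DESeq2 test, and 10 had an unadjusted edgeR p under 0.05. Without the filter on low counts edgeR called Fzd8 (-0.59, adjusted p = 0.0111).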

How the data were processed

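Poly(A) RNA of 12 libraries was sequenced, and the authors deposited raw counts per gene and a normalized signal, which is the count divided by 1 constant per library, checked over its 14275 genes. Trim Galore 0.6.7, featureCounts from Subread 2.0.1 and DESeq2 1.44 are listed in the submitters' processing notes, and the mouse build mm10 is named although gene identifiers are rat Ensembl. The aligner, rat build and strand setting are not given in the sources used here, so near-identical and overlapping genes are uncertain. Groups follow the titles, because the treatment field runs as a numbered series.

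Counts of 14601 genes kept by filterByExpr were scaled with TMM and fitted with edgeR 4.0.16 (R 4.3.3, quasi-likelihood, robust, 1 mean per group, 8 residual degrees of freedom), with Benjamini-Hochberg adjustment over all genes. SE is the log2 fold change divided by the square root of F, and intervals use it with 8 degrees of freedom. The 5 contrasts were the 4 simple effects and their difference. With 3 against 3 libraries an exact permutation test cannot go below p = 0.1. The steps were tested on simulated data. Alternatives were DESeq2 size factors, the DESeq2 1.42.0 test, no filter, a mean CPM of at least 1, only the groups compared, a replicate block, a covariate (mean log2 CPM of heart and brain markers) and leaving out each library. Besides the 10 genes, the rule named up to 3 called genes per role list and comparison with the smallest adjusted p, and the 5 genes most like Wnt5a with a mean log2 CPM of at least 2; those whose call ended under an alternative are mostly given by count. Further values of the lists were named after they were seen. These are Bambi and Apcdd1 for TGFB1, Prickle2 for TGFB1 with HDAC1, and non-called values given for comparison. The members and lists were chosen with earlier results of these data known. One check gene named by the rule is not reported here.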

Additional observations from a re-analysis of the deposited data

Results flagged for a closer look

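The HDAC1 effects on Wnt5a differed between the treatments by 0.64 on the log2 scale (TGFB1 minus vehicle, edgeR adjusted p = 0.0219), with 0.48 in TGFB1-treated cells and -0.16 in vehicle. Wnt5a was chosen with this difference known, so the p-value describes these libraries and is no independent evidence. The call ended in 3 of 18 alternatives, with the heart and brain covariate (edgeR adjusted p = 0.593) and without HDAC1 TGFB1 replicate 1 (0.0624) or 3 (0.0957).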

How the results depend on the processing

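Over 846 values of the 9 genes under alternatives, 816 kept direction and side of the threshold, 14 lost and 8 gained a call, and 8 changed sign. The number of the 9 genes called for HDAC1 with TGFB1 was 2, and 1 with the heart and brain covariate, and 1 to 2 when single libraries were left out. For the difference between HDAC1 effects it was 1, against 2 in the DESeq2 test, 0 with the covariate and 0 to 2 when single libraries were left out. The other counts stayed at 3 to 6 (HDAC1 in vehicle), 6 to 8 (TGFB1 with HDAC1) and 7 to 8 (TGFB1 with the empty vector) when single libraries were left out. The cause of these changes was not tested; the covariate moved with the groups. All genes called for the difference were 70, against 275 in the DESeq2 test, 479 without a filter, 0 with the covariate and 3 to 257 when single libraries were left out. For HDAC1 with TGFB1 they were 954, against 171 with the covariate and 237 to 1251 when single libraries were left out, and in vehicle 2038, against 1144 to 2679. The signs that changed belonged to values near 0 that were not called. Lrp6 for HDAC1 with TGFB1 (0.03) was at -0.036 with the covariate and at -0.081 to 0.13 when single libraries were left out. The difference for Fzd2 (0.05) was at -0.090 with the covariate and at -0.051 to 0.14 when single libraries were left out. Lrp6 for TGFB1 with HDAC1 was called when only the groups compared were fitted (0.17, edgeR adjusted p = 0.0178), and Fzd2 for HDAC1 in vehicle without a filter (-0.27, edgeR adjusted p = 0.00536).

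Over all 18 pairs, same-numbered replicates did not deviate together (correlations of deviations from the group means -0.36 to 0.37, median -0.02). The pairs of groups differed. Between the HDAC1 groups same numbers gave 0.24, 0.37 and 0.04, and unlike numbers gave -0.30 to 0.03. Between empty vector with TGFB1 and HDAC1 with vehicle same numbers gave -0.20, -0.28 and -0.36. The main fit did not pair libraries by number, and whether numbers pair the HDAC1 libraries is not known. With a replicate block the 9 genes gave 4 calls for HDAC1 in vehicle, 2 with TGFB1, 7 for TGFB1 with the empty vector, 6 with HDAC1 (Wnt5a was not called, edgeR adjusted p = 0.0513) and 1 for the difference, and 7 of the 68 other genes were called for HDAC1 with TGFB1, against 13 without it. Depth limits Wnt2 in vehicle libraries and Lgr6 in empty vector vehicle libraries.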
